A study of Mus musculus with 44 samples.

Results

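The genes described here are 44 genes of the cell cycle and of proliferation, out of 31484 named genes in the table. They were chosen by name and not by a cutoff on a measured value, but with earlier results of these data known. They comprise 5 genes of the G1 phase (cyclins and a kinase), 14 genes of DNA replication, 19 genes of mitosis, and 6 markers and transcription factors of dividing cells. All 44 passed the filter on low counts, which kept 14901 genes, so no member was lost. The sum of the 44 genes ranged from 4464 to 20154 estimated counts per library, and 43 of the 44 had counts in every library. The exception was Ccne2, the lowest member, which had 0 counts in KO/PEG replicate 2, where 3 counts, the limit that a count of 0 allows, correspond to 0.329 counts per 1000000 counts of the library (CPM).

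The libraries came from the gastric corpus of female BalbC mice at 13 months of age, and the study compared 2 genotypes and 2 treatments. KO mice lack the beta subunit of H+/K+ATPase, the proton pump of the parietal cell, and WT mice are the wild-type controls. Netazepide (NTZ, named YF in the labels) is a gastrin receptor antagonist, which the study's methods describe as injected under the skin at 40 mg/kg from the age of 1 month and for 12 months, in polyethylene glycol (PEG) as vehicle. There were 11 libraries of WT mice given PEG (WT/PEG), 9 of WT mice given NTZ (WT/NTZ), 13 of KO mice given PEG (KO/PEG) and 11 of KO mice given NTZ (KO/NTZ). Since the vehicle was given to the controls of both genotypes, no group is untreated. The libraries are of bulk tissue, in which all cell types of the biopsy are mixed.

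Cells enter the cycle when D-type and E-type cyclins activate their kinases and release E2F transcription factors, which switch on the genes that license and copy DNA. Later in the cycle a second set of genes, bound by the DREAM and B-MYB-FOXM1 complexes at a CHR element and by NF-Y at CCAAT boxes, peaks in G2 and mitosis and encodes cyclin B, its kinase, the spindle and the machinery that separates chromosomes. In the gastric corpus the dividing cells sit mainly in the isthmus of the gland, between the pit cells above and the neck and chief cells below, and gastrin is a growth factor for this mucosa, in particular for the histamine-producing enterochromaffin-like (ECL) cells.

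Library totals ranged from 6065084 to 21945124 estimated counts. Atp4b, which encodes the deleted subunit, reached at most 40.6 CPM in a KO library and at least 2139 CPM in a WT library, so all libraries matched their genotype labels. Libraries differed in how counts were spread over short and long RNAs, measured as the slope of log2 count on log2 transcript length. The median slope was 0.236 in WT/PEG (range 0.0591 to 0.312), 0.167 in WT/NTZ (0.0479 to 0.225), -0.138 in KO/PEG (-0.367 to 0.232) and -0.266 in KO/NTZ (-0.354 to -0.0617), so that KO libraries held relatively more counts from short RNAs. KO/PEG replicate 9 stood apart with the highest slope of the KO libraries and with 14.5% mitochondrial counts, against a KO/PEG median of 4.86%. One animal number in the labels is on 2 WT/PEG libraries and another on 1 KO/PEG and 1 KO/NTZ library. The 2 WT/PEG libraries that share a number are marked 1 and 2 in their labels, so they may come from 1 animal. They differed by more than sampling noise (chi-square per degree of freedom of 18.35, rank 11 from the lowest of 55 WT/PEG pairs). This cannot tell 2 animals from 2 samples of 1 animal, and they were kept apart as 2 replicates. With their counts summed, 2 members in KO/PEG versus WT/PEG and 1 in KO/NTZ versus KO/PEG no longer passed the adjusted p threshold of 0.05. The 13 KO/PEG libraries carry 13 different animal numbers, yet the study's text describes fewer mice in this group, and which of the libraries belong to those mice was not settled. All 13 were treated as replicates here. Nothing in the labels states that the other libraries of a group are from separate animals beyond their numbers, so p-values measure the spread between these libraries.

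Promoters of replication and mitosis genes differ in the short sequences that bind cell cycle regulators, so both strands of each promoter (250 bases before to 50 after the start of the gene, RefSeq, build GRCm38.p6) were searched for the letters of 3 motifs. The table held promoters for 33 of the 44 members, and those of Ccnd1, Ccnd2, Ccne2, Mcm4, Gins2, Ccna2, Aurkb, Kif20a, Tpx2, Foxm1 and Stmn1 were not used here. CHR was searched as TTTGAA, E2F as TTTCCCGC, TTTGGCGC or TTTCGCGC, and NF-Y as CCAAT. The 4 mitosis genes below are those that rose with NTZ in KO mice and hold a CHR match, and the 2 replication genes are shown as the contrast. Ccnb2 lies on the minus strand with its promoter at chr9:70421505-70421804, Cdc20 at chr4:118437294-118437593 (minus), Cdk1 at chr10:69352863-69353162 (minus) and Ube2c at chr2:164769679-164769978 (plus). Mcm5 lies at chr8:75109259-75109558 (plus) and Mcm6 at chr1:128359656-128359955 (minus). Each is printed 5′ to 3′ on the strand of its gene, with every match to CHR, E2F or NF-Y letters, on either strand, in capitals.
Ccnb2: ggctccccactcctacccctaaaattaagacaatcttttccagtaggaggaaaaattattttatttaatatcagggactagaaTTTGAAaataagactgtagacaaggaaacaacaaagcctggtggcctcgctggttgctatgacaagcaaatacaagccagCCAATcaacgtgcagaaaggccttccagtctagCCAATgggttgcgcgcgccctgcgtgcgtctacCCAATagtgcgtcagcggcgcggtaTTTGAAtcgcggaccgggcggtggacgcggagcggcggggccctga
Cdc20: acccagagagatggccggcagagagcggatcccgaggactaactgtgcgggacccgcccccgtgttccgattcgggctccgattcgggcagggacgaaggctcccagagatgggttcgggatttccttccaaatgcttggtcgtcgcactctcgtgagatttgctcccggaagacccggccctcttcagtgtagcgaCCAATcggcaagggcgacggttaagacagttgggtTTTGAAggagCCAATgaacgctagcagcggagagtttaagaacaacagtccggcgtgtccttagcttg
Cdk1: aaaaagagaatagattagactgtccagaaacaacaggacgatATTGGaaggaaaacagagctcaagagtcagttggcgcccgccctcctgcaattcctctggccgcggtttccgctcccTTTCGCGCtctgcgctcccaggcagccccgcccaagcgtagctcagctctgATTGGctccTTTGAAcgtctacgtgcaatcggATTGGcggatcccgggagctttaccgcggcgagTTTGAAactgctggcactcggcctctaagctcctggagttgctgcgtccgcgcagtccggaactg
Ube2c: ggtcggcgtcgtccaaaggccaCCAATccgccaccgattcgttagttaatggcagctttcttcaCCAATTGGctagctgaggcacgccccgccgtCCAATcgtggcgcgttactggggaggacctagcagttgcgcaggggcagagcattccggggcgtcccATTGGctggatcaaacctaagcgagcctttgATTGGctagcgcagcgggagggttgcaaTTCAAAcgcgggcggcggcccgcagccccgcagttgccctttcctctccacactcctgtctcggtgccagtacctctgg
Mcm5: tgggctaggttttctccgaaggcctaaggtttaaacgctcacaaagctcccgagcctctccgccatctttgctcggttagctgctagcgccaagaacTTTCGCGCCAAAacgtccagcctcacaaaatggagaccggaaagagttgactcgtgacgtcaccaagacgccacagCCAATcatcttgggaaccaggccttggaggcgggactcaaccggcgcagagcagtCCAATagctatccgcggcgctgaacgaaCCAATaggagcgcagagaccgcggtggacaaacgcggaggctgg
Mcm6: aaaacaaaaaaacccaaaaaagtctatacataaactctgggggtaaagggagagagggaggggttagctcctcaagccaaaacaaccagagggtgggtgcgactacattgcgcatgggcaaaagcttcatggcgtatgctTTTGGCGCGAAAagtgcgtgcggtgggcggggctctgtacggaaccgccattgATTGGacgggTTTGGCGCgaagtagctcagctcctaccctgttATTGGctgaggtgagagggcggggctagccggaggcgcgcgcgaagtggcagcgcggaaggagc

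The CHR letters stood in the promoters of 10 of 15 mitosis genes and 2 of 12 replication genes, against 20.2% of the 27025 genes with a promoter in the table. E2F letters stood in 6 of 12 replication genes and 1 of 15 mitosis genes (Cdk1), against 2.12% of all genes. NF-Y letters stood in 13 of 15 mitosis genes and 9 of 12 replication genes, against 41.1% of all genes. Every one of the 10 mitosis genes with CHR letters also had NF-Y letters. The pair was found in 8.97% of all genes, counting matches in any promoter of a gene, and in 6.95% of all promoters. Among the members' promoters no CHR match shared bases with another match, while 1 E2F match shared bases with an NF-Y match, 2 pairs of E2F matches overlapped and 1 pair of NF-Y matches overlapped. Birc5, the fifth mitosis gene that rose with NTZ, and Tyms held none of these letters in the window. A match is a run of letters and not a measured binding site.

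In WT/PEG corpus the level of the members spanned a wide range when compared per length, as counts divided by transcript length and scaled to a fixed total per library (TPM-like values). The highest group medians on this scale were those of Pcna, the sliding clamp of DNA polymerase (46.7), Stmn1, a microtubule destabiliser of dividing cells (35.7), Cdk1, the kinase of mitotic entry (17.5), and Ube2c, the ubiquitin carrier of the anaphase-promoting complex (16.8). The lowest medians were those of E2f1 (0.879), the centromere protein Cenpf (1.25) and the E-type cyclins Ccne1 (1.29) and Ccne2 (1.32). Mki67, which encodes the nuclear protein Ki-67, had a per-length median of 5.10 and a median of 43.2 CPM, since its RNA is among the longest of the list.

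**Figure D1:**
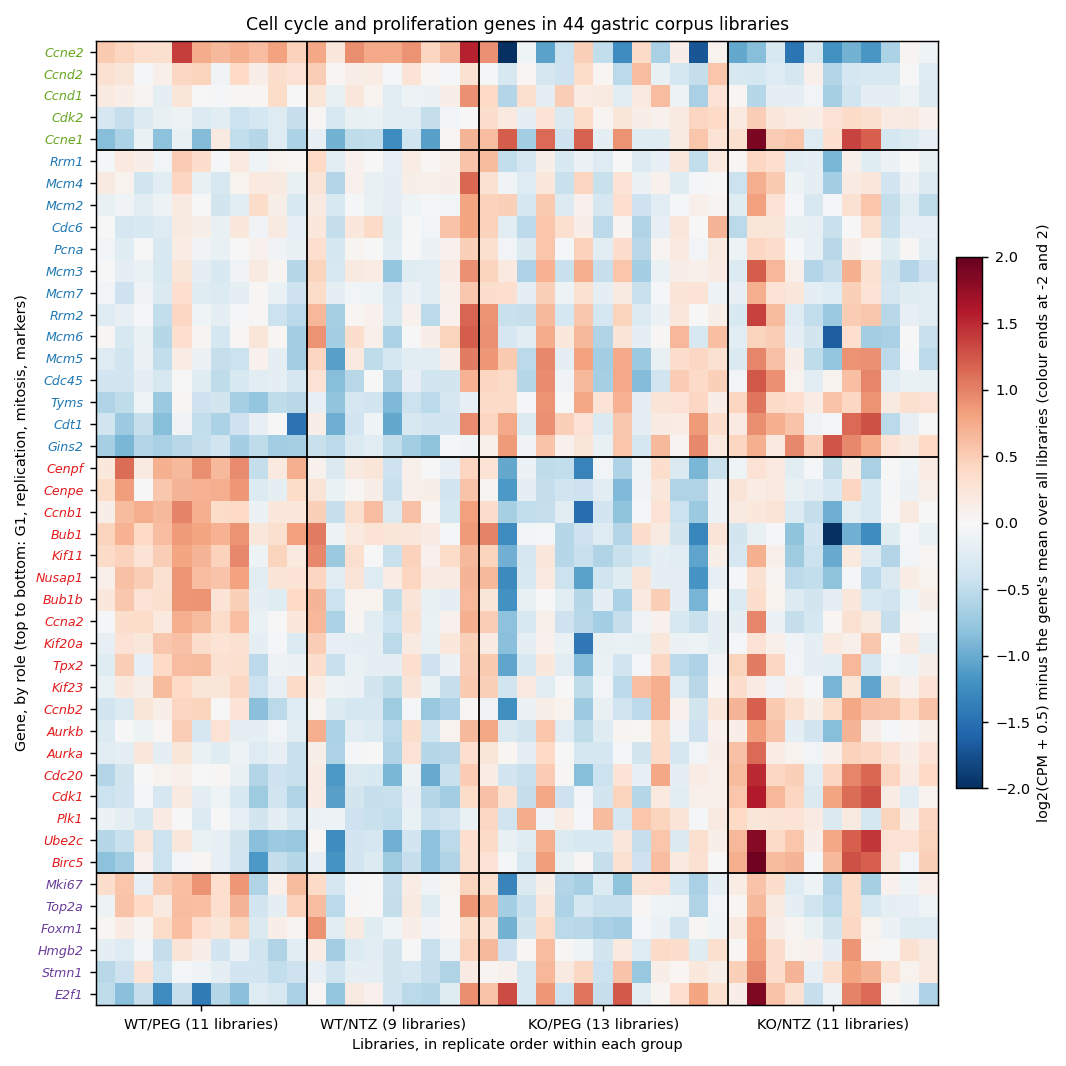
Heatmap of the 44 genes (rows, grouped by role and ordered within a role by the KO/PEG versus WT/PEG difference) in the 44 libraries (columns, grouped as labelled). Colour is log2(CPM + 0.5) minus the mean of the gene over all libraries; the mitosis rows from Cenpf to Bub1b are mostly red in WT/PEG and blue in KO/PEG, the rows of Cdc20, Cdk1, Ube2c and Birc5 near the foot of the mitosis block are reddest in KO/NTZ, and WT/NTZ replicate 9, the last column of its group, is red in most rows.

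The first comparison, KO/PEG versus WT/PEG, asks how loss of the proton pump subunit changed these genes. Of the 44, 13 were higher and 15 lower in KO/PEG, with 5 of 14 replication genes higher and 0 lower, and 3 of 19 mitosis genes higher and 10 lower. The genotype moved most of the transcriptome, with 74.7% of all genes tested past the adjusted p threshold of 0.05 (37.5% higher and 37.2% lower), so the 28 members called are fewer than that background share would give. The 35.7% of replication genes called higher is close to the share of all genes, and 0 of them were lower, while 52.6% of the mitosis genes were lower and 15.8% higher. By group medians per length, 10 of the 19 mitosis genes were higher in KO/PEG, against 7 by CPM, and 13 of the 14 replication genes were, against 12 by CPM. All adjusted p-values come from the quasi-likelihood test of edgeR, adjusted over the 14901 genes by the Benjamini-Hochberg method, and log2 fold changes carry their standard error. The median log2 fold change was 0.27 over the replication genes and -0.38 over the mitosis genes, beside -0.00288 over all genes. In such bulk tissue, fewer cells of a type and less RNA per cell cannot be told apart.

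Among the G1 genes, E-type cyclins, which activate Cdk2 at the start of S phase, moved in opposite directions. Ccne1 ranged from 1.54 to 3.70 CPM (median 2.00) in WT/PEG and from 1.82 to 8.12 CPM (median 4.02) in KO/PEG. 12 of 13 KO/PEG libraries lay above the WT/PEG median and 8 above all WT/PEG libraries, so the groups overlapped, with a log2 fold change of 1.02 ± 0.29 (edgeR adjusted p = 0.00165), a call lost with only KO animals numbered below 100 (0.35, adjusted p = 0.359). Ccne2 ranged from 2.56 to 5.89 CPM (median 3.27) in WT/PEG and from 0 to 4.09 CPM (median 1.31) in KO/PEG. 10 of 13 KO/PEG libraries lay below every WT/PEG library, and the log2 fold change was -1.08 ± 0.32 (adjusted p = 0.00268). Cdk2 itself, with 15.9 to 20.5 CPM (median 18.1) in WT/PEG and 17.9 to 29.9 CPM (median 25.3) in KO/PEG, was above all WT/PEG libraries in 11 of 13 KO/PEG libraries (log2 fold change 0.49 ± 0.07, adjusted p = 9.52e-08). Ccnd2, a D-type cyclin, was lower by a small margin (median 82.3 CPM in WT/PEG and 60.5 CPM in KO/PEG, log2 fold change -0.27 ± 0.11, adjusted p = 0.021), a call lost when only KO animals numbered below 100 or only animals numbered 100 or above were used (adjusted p = 0.0815 and 0.0596). Ccnd1, the other D-type cyclin, had a log2 fold change of 0.03 (95% interval -0.21 to 0.28).

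Among the replication genes, Gins2, a subunit of the GINS complex of the replicative helicase, ranged from 13.7 to 19.7 CPM (median 16.5) in WT/PEG and from 20.5 to 51.8 CPM (median 30.3) in KO/PEG. It was the 1 member whose 2 groups did not overlap, a pattern that 14.3% of all genes tested showed, and its log2 fold change was 0.97 ± 0.13 (adjusted p = 3.13e-08). Tyms, thymidylate synthase, ranged from 16.9 to 30.1 CPM (median 20.4) in WT/PEG and from 25.4 to 54.8 CPM (median 35.8) in KO/PEG. All 13 KO/PEG libraries lay above the WT/PEG median and 10 above every WT/PEG library (log2 fold change 0.82 ± 0.12, adjusted p = 1.02e-07). Cdt1, which loads the MCM helicase on origins, had a median of 4.59 CPM (2.04 to 6.60) in WT/PEG and 8.44 CPM (5.27 to 12.7) in KO/PEG, again with 10 of 13 libraries above all WT/PEG libraries (log2 fold change 0.89 ± 0.22, adjusted p = 0.000359). Cdc45, a partner of the MCM ring at the fork, had a median of 2.92 CPM (2.47 to 3.75) in WT/PEG and 5.05 CPM (1.82 to 7.68) in KO/PEG, where 8 libraries lay above and 3 below all WT/PEG libraries (log2 fold change 0.59 ± 0.22, adjusted p = 0.0155). Mcm5, a subunit of the MCM ring, was the fifth gene called (log2 fold change 0.57 ± 0.23, adjusted p = 0.0234). The other 9 replication genes, Mcm2, Mcm3, Mcm4, Mcm6, Mcm7, Cdc6, Pcna, Rrm1 and Rrm2, had log2 fold changes from -0.19 (Rrm1, a subunit of ribonucleotide reductase) to 0.36 (Mcm6), none past the threshold.

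The replication result differed within KO/PEG by the animal numbers in the labels, whose meaning is not given. All 11 WT/PEG libraries carry numbers of 100 or above, as do 7 KO/PEG libraries, while 6 KO/PEG libraries carry numbers below 100. Mcm5 ranged from 8.84 to 20.3 CPM (median 11.8) in the 6 libraries below 100 and from 18.9 to 30.1 CPM (median 25.9) in the other 7. Cdc45 ranged from 1.82 to 5.01 CPM (median 2.53) in the 6 and from 5.05 to 7.68 CPM (median 5.51) in the 7, so the 2 sets did not overlap for this gene. With only animals numbered 100 or above, 12 of 14 replication genes were called higher, and with only KO animals numbered below 100, 3 were called higher and 1 lower. The shares of all genes called in these 2 fits are not given here. In the main fit they were 37.5% higher and 37.2% lower. Gins2 kept its call in both (log2 fold change 1.05 and 0.91), Tyms too (1.01 and 0.61), and Cdt1 too (1.06 and 0.71), whereas Mcm5 went from 0.96 to -0.01 and Cdc45 from 1.01 to -0.03. Length slopes ranged from -0.367 to -0.0120 in the 7 libraries and from -0.355 to 0.232 in the 6. Of the KO/PEG libraries with slopes of -0.30 or less, only replicate 12 carries a number below 100. It held the highest Mcm5 (20.3 CPM) and Cdc45 (5.01 CPM) of the 6. Replicate 1, with the highest slope of the 7, held 28.0 CPM of Mcm5 and 5.19 CPM of Cdc45. The part of these animal numbers or of the slope in the result was not tested further.

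Of the 19 mitosis genes, 10 were lower in KO/PEG. Cenpf, a kinetochore protein of late G2, ranged from 4.22 to 13.8 CPM (median 9.87) in WT/PEG and from 2.1 to 7.88 CPM (median 4.32) in KO/PEG. All 13 KO/PEG libraries lay below the WT/PEG median, 6 of them below every WT/PEG library, with a log2 fold change of -0.98 ± 0.17 (adjusted p = 2.25e-06). Cenpe, the kinetochore motor, ranged from 5.06 to 11.8 CPM (median 9.17) in WT/PEG and from 2.52 to 7.30 CPM (median 4.58) in KO/PEG (log2 fold change -0.85 ± 0.15, adjusted p = 2.61e-06). Ccnb1, cyclin B1, ranged from 7.28 to 16.3 CPM (median 10.6) in WT/PEG and from 2.43 to 10.2 CPM (median 5.77) in KO/PEG (log2 fold change -0.85 ± 0.17, adjusted p = 3.71e-05). Kif11, the kinesin that drives spindle poles apart, ranged from 7.81 to 16.8 CPM (median 11.7) in WT/PEG and from 3.79 to 11.6 CPM (median 6.5) in KO/PEG (log2 fold change -0.80 ± 0.18, adjusted p = 0.000149). For Ccnb1 and Kif11 alike, 10 of 13 KO/PEG libraries lay below every WT/PEG library, although the ranges overlapped. The other 6 lower genes were the checkpoint kinases Bub1 (-0.85) and Bub1b (-0.60), Nusap1 (-0.72), cyclin A2 (Ccna2, -0.57), Kif20a (-0.38) and the spindle assembly factor Tpx2 (-0.38), given as log2 fold changes. With only KO animals numbered below 100 the calls of Kif20a and Tpx2 were lost (adjusted p = 0.0892 and 0.171), and that of Tpx2 was lost with only animals numbered 100 or above too (adjusted p = 0.0939). Both genes changed sign when only the highest transcript of each gene was used, which held 70.34% of the level of Kif20a and 52.25% of that of Tpx2.

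3 mitosis genes were higher in KO/PEG, against the direction of most. Birc5, which encodes survivin of the chromosomal passenger complex, ranged from 6.75 to 16.6 CPM (median 11.4) in WT/PEG and from 11.1 to 28.0 CPM (median 15.9) in KO/PEG (log2 fold change 0.53 ± 0.19, adjusted p = 0.0119). Plk1, a kinase of mitotic entry and exit, ranged from 22.4 to 32.6 CPM (median 25.6) in WT/PEG and from 21.9 to 48.6 CPM (median 32.7) in KO/PEG (log2 fold change 0.39 ± 0.11, adjusted p = 0.00126). Ube2c ranged from 9.91 to 21.1 CPM (median 13.2) in WT/PEG and from 13.0 to 29.9 CPM (median 16.1) in KO/PEG (log2 fold change 0.40 ± 0.19, adjusted p = 0.0484). The groups overlapped for all of them, with 6, 7 and 5 of 13 KO/PEG libraries above every WT/PEG library for Birc5, Plk1 and Ube2c. The calls of Birc5 and Ube2c were lost with only KO animals numbered below 100 (adjusted p = 0.161 and 0.228) and without the libraries in which the squamous keratin Krt5 was above 1 CPM (adjusted p = 0.0941 and 0.209). That of Plk1 held in both but was lost with only animals numbered 100 or above (0.20, adjusted p = 0.0937). The 6 mitosis genes that did not pass the threshold, Cdk1, Cdc20, Ccnb2, Kif23, Aurka and Aurkb, had log2 fold changes from -0.18 (Kif23) to 0.38 (Cdk1, adjusted p = 0.063).

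All 6 markers and transcription factors were called, 3 in each direction. Mki67 ranged from 19.8 to 57.0 CPM (median 43.2) in WT/PEG and from 11.8 to 38.1 CPM (median 24.9) in KO/PEG. Every KO/PEG library lay below the WT/PEG median, 4 of them below all WT/PEG libraries, and the log2 fold change was -0.68 ± 0.16 (adjusted p = 0.000306). Top2a, the topoisomerase of dividing cells, had medians of 35.4 and 20.9 CPM (log2 fold change -0.51 ± 0.16, adjusted p = 0.00382), and Foxm1, a transcription factor of G2 genes, had medians of 6.94 and 4.68 CPM (-0.48 ± 0.15, adjusted p = 0.00479). E2f1, the transcription factor that switches on replication genes, went the other way, from 1.02 to 2.85 CPM (median 2.20) in WT/PEG to 2.41 to 9.32 CPM (median 4.55) in KO/PEG. 10 of 13 KO/PEG libraries exceeded every WT/PEG library for E2f1 (log2 fold change 1.33 ± 0.28, adjusted p = 5.72e-05). Stmn1 and the chromatin protein Hmgb2 were higher by 0.38 and 0.33 on the log2 scale (adjusted p = 0.00728 and 0.0283), and neither call held with only KO animals numbered below 100 (adjusted p = 0.38 and 0.386).

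**Figure D2:**
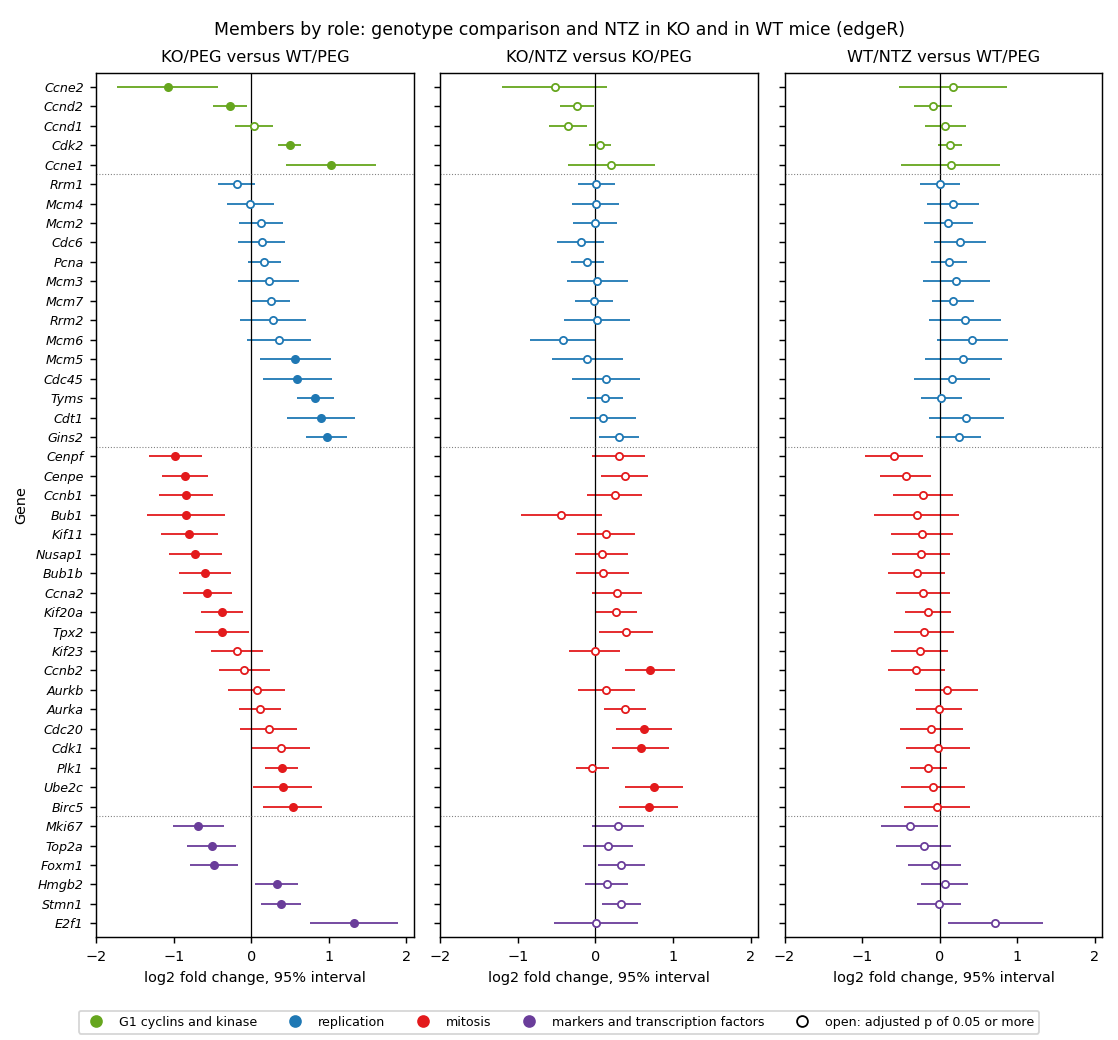
Log2 fold change (x axis) with its 95% interval for each of the 44 genes (y axis, coloured by role) in KO/PEG versus WT/PEG, KO/NTZ versus KO/PEG and WT/NTZ versus WT/PEG, with filled points for an adjusted p under 0.05. In the left panel replication genes reach up to 0.97 and mitosis genes down to -0.98, in the middle panel 5 mitosis points are filled, all on the right of 0, and in the right panel none is filled.

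The genotype difference followed the length of the RNA. Across all 14901 genes, RNA length and the KO/PEG versus WT/PEG difference had a Spearman correlation of -0.52, and median log2 fold changes were 0.59 for RNAs under 2000 bases, -0.07 for 2000 to 4000 bases and -0.55 for those over 4000 bases. Across the 19 mitosis genes it was -0.80, from Ube2c (969 bases), Birc5 (1055 bases) and Cdk1 (1302 bases) at one end to Kif11 (4819 bases), Cenpe (7134 bases) and Cenpf (10643 bases) at the other. These genes are not independent replicates, and the correlations are given as descriptions. All 6 members with RNAs over 4000 bases, Foxm1, Kif11, Ccnd2, Cenpe, Mki67 and Cenpf, were lower in KO/PEG, as were 2605 of the 3822 genes of all kinds in that class. Across the 14 replication genes, none of which exceeded 4000 bases, the correlation was -0.23. Within the class of 2000 to 4000 bases, where all genes had a median near 0, the 12 replication genes had a median of 0.27 with 4 higher and 0 lower, and the 8 mitosis genes a median of -0.47 with 1 higher and 6 lower. Of all 5867 genes in that class, 1819 were higher and 2243 lower.

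2 other fits bear on length. With each library's length slope added as a covariate, 5 of the 44 members were called (2 higher and 3 lower), among them 2 replication genes, both lower, and 1 mitosis gene, higher, and 4884 genes in all. In that fit the log2 fold changes were -0.16 for Mki67, -0.33 for Cenpf, 0.17 for Gins2 and 0.20 for Tyms, none past the threshold, and since the slope separates most KO from WT libraries, genotype and slope can hardly be told apart in it. With an offset for the mean length of the transcripts counted for each gene in each library, 24 members were called (13 higher and 11 lower), among them 6 replication genes, all higher. The share of all genes called with the offset is not given here. There Mki67 stayed at -0.69 and Gins2 at 0.91. Cenpf went to -0.18 (adjusted p = 0.569), Cenpe to 0.02 (adjusted p = 0.933) and Top2a to 0.36 (adjusted p = 0.0603), so that these 3 calls were not kept in this fit. The offset follows the mix of transcripts counted within a gene, not the library's slope over all genes. Mki67 has 1 transcript here, so the offset could hardly change its value.

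**Figure D3:**
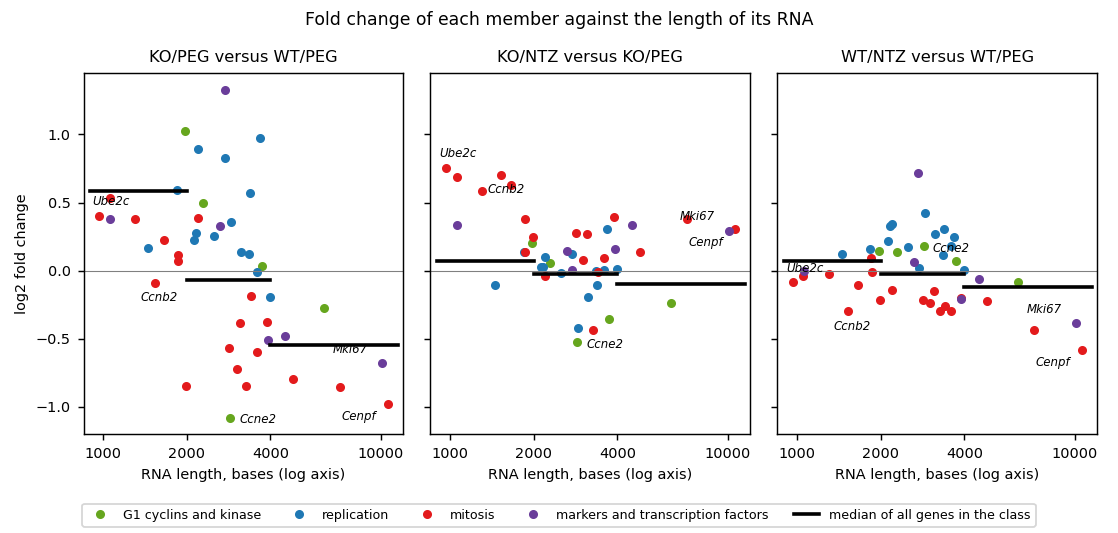
Log2 fold change (y axis) of each member against the count-weighted mean length of its annotated transcripts in bases (log x axis), coloured by role, with black bars for the median of all genes in each of 3 length classes. In KO/PEG versus WT/PEG the mitosis points run from 0.40 at Ube2c, the shortest, to -0.98 at Cenpf, the longest, and in KO/NTZ versus KO/PEG the highest points are those of mitosis genes with RNAs under 2000 bases.

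Other genes of the pathway were taken from lists of named genes, also chosen with earlier results of these data known. Of 22 further replication genes, 11 were higher and 0 lower in KO/PEG (median log2 fold change 0.32), and the smallest p-values were those of Rfc3, a subunit of the clamp loader (1.0 ± 0.13, adjusted p = 2.11e-08), and Orc6 of the origin recognition complex (0.76 ± 0.12, adjusted p = 6.54e-07). Of 25 further mitosis genes, 5 were higher and 10 lower (median -0.34), and the smallest p-values were those of Anln, a scaffold of the cleavage furrow (-1.44 ± 0.17, adjusted p = 6.97e-10), and the kinetochore scaffold Knl1 (-1.57 ± 0.20, adjusted p = 4.26e-09). Of 12 further G1 regulators, 5 were higher and 1 lower, with the D-cyclin kinase Cdk4 at 0.86 ± 0.14 (adjusted p = 6.1e-07) and the repressor E2f8 at -0.82 ± 0.25 (adjusted p = 0.00348). Of 15 cell cycle inhibitors and pocket proteins, 5 were higher and 7 lower, among them Cdkn1b, which encodes p27, at -1.05 ± 0.14 (adjusted p = 1.89e-08). Of all genes tested, 37.5% were called higher and 37.2% lower in this comparison. The shares were 50% and 0% in the further replication list and 20% and 40% in the further mitosis list. They were 41.7% and 8.33% in the further G1 list and 33.3% and 46.7% in the list of inhibitors.

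Most marker lists of other cells held genes that differed with genotype, as did most of the transcriptome. All 4 B cell markers were higher in KO/PEG, with a summed level of 0.543 to 10.5 CPM in WT/PEG and 4.1 to 72.0 CPM in KO/PEG, and so were 3 of 3 plasma cell, 4 of 6 T cell and 6 of 6 neck cell and SPEM (spasmolytic polypeptide-expressing metaplasia) markers. The chief cell list, with 3 of 4 markers lower and 1 higher, ranged from 88876 to 208501 summed CPM in WT/PEG and from 2442 to 36553 in KO/PEG. Also lower were 3 of 4 parietal cell, 3 of 4 pit cell, 4 of 4 smooth muscle and 1 of 4 fibroblast markers, and also higher were 3 of 3 erythroid, 3 of 4 ECL cell, 3 of 4 general epithelial, 2 of 4 myeloid and 1 of 2 germinal centre B cell markers. None of the 5 squamous markers was called by edgeR (0 with an unadjusted p under 0.05). No marker of these lists was at 0 in all libraries. The part of these cells in the members' levels was not tested.

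The second comparison, KO/NTZ versus KO/PEG, asks what blocking the gastrin receptor did in KO mice. 5 of the 44 members rose with NTZ and 0 fell, beside 5.56% of all genes called (2.97% higher and 2.6% lower). All 5 were mitosis genes: Ccnb2, Ube2c, Birc5, Cdc20 and Cdk1. None of the 14 replication genes was called by edgeR (2 with an unadjusted p under 0.05), nor any of the 5 G1 genes (2) or the 6 markers and transcription factors (2). The median log2 fold change was 0.28 over the 19 mitosis genes, 0.01 over the 14 replication genes and -0.01 over all genes. By group medians per length, 11 of the 19 mitosis genes were higher in KO/NTZ, against 17 by CPM. Of the 14 replication genes 2 were, against 3 by CPM, and of all 44 members 17 were, against 27 by CPM. KO/PEG libraries are shared between this comparison and the first. DESeq2 called the same number higher and also Ccnd1 lower.

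Ccnb2, cyclin B2, ranged from 4.06 to 17.2 CPM (median 9.43) in KO/PEG and from 11.1 to 24.1 CPM (median 15.4) in KO/NTZ. All 11 KO/NTZ libraries lay above the KO/PEG median and 2 above every KO/PEG library, for a log2 fold change of 0.70 ± 0.16 (adjusted p = 0.00516). Ube2c ranged from 13.0 to 29.9 CPM (median 16.1) in KO/PEG and from 19.8 to 65.0 CPM (median 26.8) in KO/NTZ. Again all 11 KO/NTZ libraries lay above the KO/PEG median, 4 of them above every KO/PEG library (log2 fold change 0.76 ± 0.18, adjusted p = 0.00879). Birc5 ranged from 11.1 to 28.0 CPM (median 15.9) in KO/PEG and from 14.9 to 60.9 CPM (median 24.7) in KO/NTZ (log2 fold change 0.69 ± 0.19, adjusted p = 0.021). Cdc20, the activator of the anaphase-promoting complex, ranged from 7.76 to 24.97 CPM (median 14.6) in KO/PEG and from 12.3 to 41.4 CPM (median 19.6) in KO/NTZ (log2 fold change 0.63 ± 0.18, adjusted p = 0.0282). Cdk1 ranged from 11.6 to 30.2 CPM (median 18.7) in KO/PEG and from 14.1 to 53.5 CPM (median 25.8) in KO/NTZ (log2 fold change 0.59 ± 0.18, adjusted p = 0.0472). For Ube2c and Cdk1 alike, the 4 libraries above every KO/PEG library were KO/NTZ replicates 2, 6, 7 and 8. Their length slopes, -0.354 to -0.288, were the 4 most negative of KO/NTZ. The KO/PEG libraries with slopes of -0.367 to -0.304 had 14.6 to 29.9 CPM of Ube2c and 16.8 to 30.2 CPM of Cdk1. How the slope bears on these values was not tested beyond the covariate fit below. The groups overlapped for each of the 5 genes, and no member separated the 2 groups, as 0.0403% of all genes did.

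**Figure D4:**
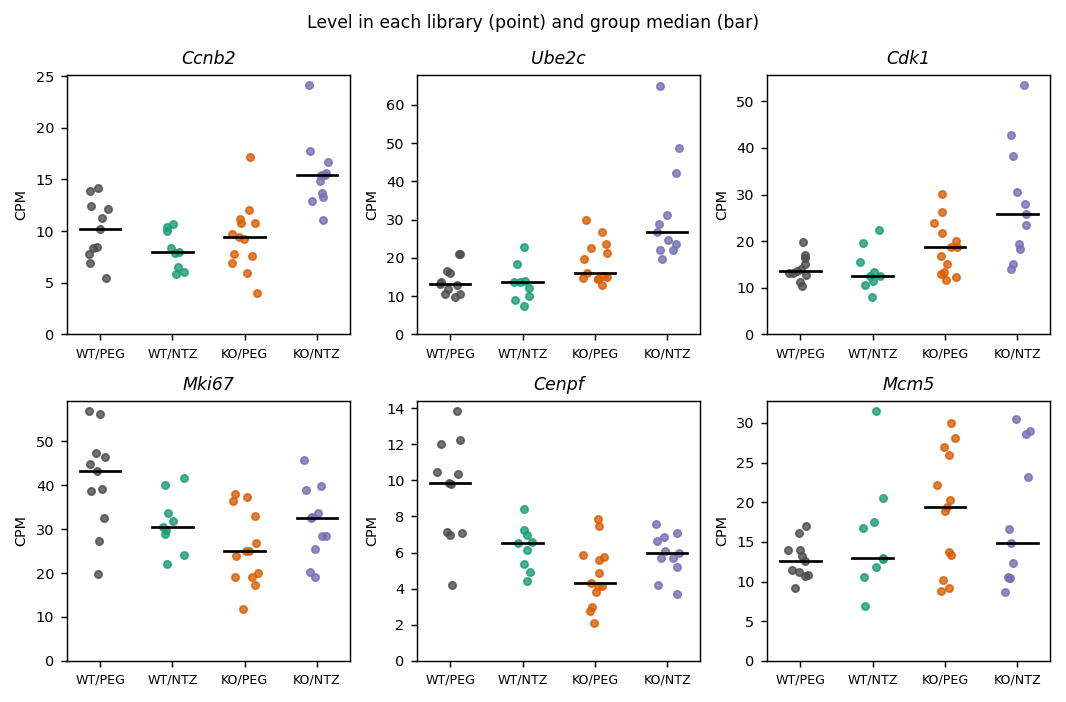
CPM (y axis, from 0) of Ccnb2, Ube2c, Cdk1, Mki67, Cenpf and Mcm5 in each library (points) of the 4 groups (x axis), with the group median as a bar. Ccnb2 medians are 10.2, 7.96, 9.43 and 15.4 CPM from left to right, and those of Mki67 are 43.2, 30.5, 24.9 and 32.5 CPM.

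The animal numbers differed between these groups too, since 10 of the 11 KO/NTZ libraries carry numbers below 100, against 6 of the 13 KO/PEG libraries. With only KO animals numbered below 100, 6 members were higher and 1 lower, in a fit whose share over all genes is not given here. Cdc45 at 0.78 (adjusted p = 0.04998), Stmn1 at 0.54 (adjusted p = 0.0279) and Ccnd1 at -0.50 (adjusted p = 0.0299) were called there, and Cdc20 was not (0.61, adjusted p = 0.0774).

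The call of these genes depended on the libraries and the fit. When the 7 KO libraries with the squamous keratin Krt5 above 1 CPM (5 KO/NTZ and 2 KO/PEG) were left out with the WT libraries above that level, none of the 44 members was called and 133 genes were called in all, while the log2 fold changes were 0.70 for Ccnb2 (adjusted p = 0.0737), 0.72 for Ube2c (0.137), 0.68 for Birc5 (0.183), 0.56 for Cdc20 (0.224) and 0.58 for Cdk1 (0.231). With only the 2 KO groups in the fit, Ccnb2 and Ube2c kept their calls (adjusted p = 0.0229 and 0.0338) and the other 3 lost theirs. The summed squamous markers ranged from 1.47 to 357 CPM in KO/PEG and from 20.5 to 506 CPM in KO/NTZ, with 0 of 5 markers called, and their part in the result was not tested beyond this. ECL cell markers fell in 4 of 4 genes, from a summed level of 749 to 2446 CPM in KO/PEG to 555 to 870 CPM in KO/NTZ. Of the other lists, 3 of 3 erythroid (median log2 fold change -2.21), 2 of 4 fibroblast, 1 of 4 myeloid and 1 of 4 parietal cell markers were lower, 2 of 4 smooth muscle markers were higher, and no marker of the remaining lists was called. Their part in the members' values was not tested.

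All 5 genes have RNAs under 2000 bases, a class in which 162 of 5212 genes were higher with NTZ and 5 of the 8 mitosis genes were. With the length slope as a covariate, 3 of the 44 members were called: Ccnb2 at 0.68 (adjusted p = 0.00838) and Ube2c at 0.56 (adjusted p = 0.0306) held, and the third was Cenpe at 0.48 (adjusted p = 0.0345). Cdk1 at 0.38 (adjusted p = 0.145), Cdc20 at 0.49 (adjusted p = 0.0859) and Birc5 at 0.48 (adjusted p = 0.068) were lost. With the offset for transcript length 3 were called as well, and Cdk1 and Cdc20 were not (adjusted p = 0.0941 and 0.108). Ccnb2 has 1 transcript here, and 1 transcript held 99.87% of the level of Ube2c. The offset could therefore hardly change the values of these genes, and their calls in it are no check on length.

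The remaining 14 mitosis genes had log2 fold changes from -0.44 for Bub1 to 0.40 for Tpx2 with NTZ, and none passed the threshold. Mki67 ranged from 11.8 to 38.1 CPM (median 24.9) in KO/PEG and from 18.99 to 45.7 CPM (median 32.5) in KO/NTZ. 9 of 11 KO/NTZ libraries were above the KO/PEG median, yet the log2 fold change was 0.29 (95% interval -0.04 to 0.62, adjusted p = 0.256), and the interval holds both 0 and a rise of 0.62. The replication genes with the smallest p were Gins2 at 0.30 ± 0.13 (adjusted p = 0.14) and Mcm6, another subunit of the MCM ring, at -0.42 ± 0.21 (adjusted p = 0.196). Ccnd1 had the smallest p of the G1 genes, with a median of 55.0 CPM (31.1 to 74.7) in KO/PEG and 43.1 CPM (30.6 to 50.03) in KO/NTZ. All 11 KO/NTZ libraries lay below the KO/PEG median for Ccnd1 (log2 fold change -0.35 ± 0.12, adjusted p = 0.0703), and it was called lower with DESeq2 (adjusted p = 0.0397) and without WT/NTZ replicate 9 (adjusted p = 0.0404) as well as with only KO animals numbered below 100. Stmn1 and Foxm1 had log2 fold changes of 0.33 and 0.34 (adjusted p = 0.101 and 0.166).

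Beside 2.97% of all genes called higher and 2.6% lower, 4 of 25 further mitosis genes rose with NTZ in KO mice and 0 fell. They were Pttg1, which encodes securin (0.85 ± 0.18, adjusted p = 0.00246), Cdca3 (0.66 ± 0.15, adjusted p = 0.00665), the centromeric histone Cenpa (0.55 ± 0.14, adjusted p = 0.00946) and the checkpoint protein Mad2l1 (0.39 ± 0.11, adjusted p = 0.0317). None of 22 further replication genes was called by edgeR, and 0 had an unadjusted p under 0.05. Of the further G1 regulators, Myc fell by 0.35 and Cdk6 by 0.38 on the log2 scale (adjusted p = 0.0308 and 0.0279). The 1 inhibitor called was Cdkn2d, which encodes p19 of the INK4 family and was higher by 0.46 (adjusted p = 0.0102).

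NTZ in WT mice is the third comparison. None of the 44 members was called in WT/NTZ versus WT/PEG by edgeR (4 with an unadjusted p under 0.05) nor in any other fit that was run, beside 1.03% of all genes (1.03% higher and 0.00671% lower). All 14 replication genes had log2 fold changes above 0, from 0.00369 for Rrm1 to 0.42 for Mcm6, and 18 of 19 mitosis genes had values below 0, down to -0.58 for Cenpf. Cenpf had a median of 9.87 CPM (4.22 to 13.8) in WT/PEG and 6.51 CPM (4.44 to 8.39) in WT/NTZ, with an adjusted p of 0.163. Mki67 had a median of 43.2 CPM in WT/PEG and 30.5 CPM (22.05 to 41.7) in WT/NTZ, a log2 fold change of -0.39 ± 0.18 that did not pass (adjusted p = 0.576). E2f1 had the highest value of the list, 0.72 ± 0.30 (adjusted p = 0.47). In the further lists, 20 of 22 replication genes had values above 0 and 22 of 25 mitosis genes below 0, with 0 called by edgeR in either (1 and 2 with an unadjusted p under 0.05). Of all genes tested, 6896 had values above 0 and 8004 below. RNA length and the log2 fold change had a Spearman correlation of -0.69 across the 19 mitosis genes and -0.44 across all genes in this comparison, given as a description. Genes within a list vary together across libraries, so these signs are not independent. WT/NTZ replicate 9 was the highest library of its group for most members and also held the highest Cd79a of the WT libraries, 17.3 CPM. WT/NTZ libraries also held the highest summed squamous markers, up to 2965 CPM. 5 of the 9 WT/NTZ libraries carry animal numbers below 100, and 0 of the 11 WT/PEG libraries. The part of any of these in the values was not tested.

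The difference between the NTZ effect in KO and in WT mice was tested as an interaction. It passed for 1 of the 44 members, Ccnb2, beside 0.96% of all genes (0.242% higher and 0.718% lower), with a difference of 1.0 ± 0.24 on the log2 scale (adjusted p = 0.0265). Ccnb2 had medians of 10.2 CPM in WT/PEG and 7.96 CPM in WT/NTZ, against 9.43 CPM in KO/PEG and 15.4 CPM in KO/NTZ. Without KO/PEG replicate 9, and likewise without WT/NTZ replicate 9, 2 members passed, the second being Cenpe (adjusted p = 0.0472 and 0.0493). With only KO animals numbered below 100 no member passed (Ccnb2 at 0.90, adjusted p = 0.0763). For Mki67 the difference was 0.68 ± 0.25 (adjusted p = 0.193) and for Mcm6 it was -0.85 ± 0.31 (adjusted p = 0.195). Of the further mitosis genes, Pttg1 passed with a difference of 1.05 ± 0.27 (adjusted p = 0.0459).

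Under NTZ in both genotypes, KO/NTZ versus WT/NTZ, 15 members were higher in KO and 6 lower, beside 72.4% of all genes called (35.6% higher and 36.8% lower). Here 7 of 19 mitosis genes were higher and 2 lower, and 4 of 14 replication genes were higher and 1 lower. The median log2 fold change was 0.06 over the mitosis genes and 0.02 over the replication genes. RNA length and the log2 fold change had a Spearman correlation of -0.73 across the 19 mitosis genes and -0.46 across all genes, given as a description. Of the mitosis genes, 6 of 8 with RNAs under 2000 bases were higher, and 0 of 3 with RNAs over 4000 bases. Of all genes under 2000 bases, 3091 of 5212 were higher. The part of length in these calls was not tested apart from genotype. Ccnb2 ranged from 5.82 to 10.7 CPM in WT/NTZ and from 11.1 to 24.1 CPM in KO/NTZ, so that the groups did not overlap (log2 fold change 0.92 ± 0.18, adjusted p = 2.52e-05). Gins2, Tyms and Cdk2 were higher and Ccne2 lower without overlap too, 5 members in all, beside 26.8% of all genes. Ube2c was higher by 1.25 ± 0.21 (adjusted p = 1.71e-06) and Birc5 by 1.26 ± 0.21 (adjusted p = 2.12e-06), both with 8 of 11 KO/NTZ libraries above every WT/NTZ library. Mki67, with medians of 30.5 CPM in WT/NTZ and 32.5 CPM in KO/NTZ, had a log2 fold change of -0.00257 (95% interval -0.37 to 0.36). Ccne2 had the most negative value, -1.79 ± 0.36 (adjusted p = 3.15e-05). Without the libraries with Krt5 above 1 CPM, which left 6 KO/NTZ and 2 WT/NTZ libraries, 11 members were higher and 0 lower.

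Within groups, genes of a role varied together from library to library. The median Pearson correlation of log2 CPM over pairs of genes was 0.56 to 0.86 among the 14 replication genes and 0.57 to 0.77 among the 19 mitosis genes in the 4 groups. Between the 2 roles it was 0.07 in WT/PEG (11 libraries), 0.09 in KO/PEG (13), 0.53 in KO/NTZ (11) and 0.76 in WT/NTZ (9). The mean log2 CPM of the mitosis genes minus that of the replication genes had a median of -0.23 in WT/PEG (range -1.07 to -0.05), -0.76 in WT/NTZ (-1.01 to -0.42), -0.96 in KO/PEG (-1.81 to -0.34) and -0.71 in KO/NTZ (-1.10 to -0.34). The WT/PEG and KO/PEG libraries overlapped on this difference, and the 5 KO/PEG libraries with the most negative length slopes (-0.367 to -0.304) had its 5 lowest values (-1.81 to -1.20).

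**Figure D5:**
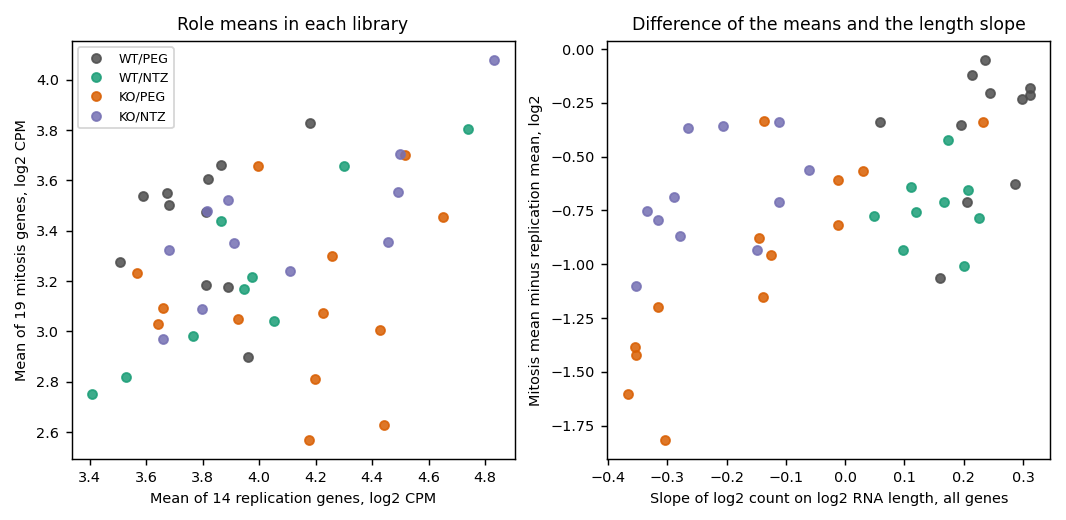
Left, mean log2 CPM of the 19 mitosis genes (y axis) against that of the 14 replication genes (x axis) in each library, coloured by group. Right, the mitosis mean minus the replication mean (y axis) against the library's slope of log2 count on log2 RNA length (x axis); the lowest point, a KO/PEG library at -1.81, has a slope of -0.304, and the WT/PEG libraries have slopes above 0.

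Mki67 was followed in each group against 7 measures (28 relations, permutation tests with Benjamini-Hochberg adjustment over all of them). It varied with Top2a in every group, with Pearson r of 0.77 in WT/PEG (adjusted permutation p = 0.0355), 0.97 in WT/NTZ (adjusted exact permutation p = 0.00139), 0.81 in KO/PEG and 0.88 in KO/NTZ (adjusted permutation p = 0.00168 in both). Spearman rho was 0.82, 0.97, 0.84 and 0.95, and without the 2 libraries farthest from the median of Top2a, r was 0.48, 0.95, 0.81 and 0.83, so that the WT/PEG relation rests in part on those libraries. Mki67 also varied with the length slope in KO/PEG (r of 0.65, rho of 0.73, adjusted permutation p = 0.0388 and 0.0282, and r of 0.48 without the 2 farthest libraries), and with the mitochondrial share there (r of 0.62, rho of 0.72, adjusted permutation p = 0.0311 and 0.0282, and r of 0.73). For the length slope in WT/PEG, r was 0.70 and rho 0.71, which did not pass (adjusted permutation p = 0.0729 and 0.0561). Without the 2 farthest libraries r was 0.61 there. For the same slope r was -0.45 in WT/NTZ and 0.12 in KO/NTZ, and neither passed. In WT/PEG the relation with the mitochondrial share had r of 0.77 and rho of 0.59 (adjusted permutation p = 0.0311 and 0.145, and r of 0.53 without the 2 farthest libraries). In WT/NTZ it was negative (r of -0.89, rho of -0.78, adjusted exact permutation p = 0.0126 and 0.0561, and r of -0.95). In WT/NTZ Mki67 also varied with Mcm5 (r of 0.80, rho of 0.70, adjusted exact permutation p = 0.0355 and 0.11, and r of 0.61) and with Ccnd1 (r of 0.78, rho of 0.85, adjusted exact permutation p = 0.024 and 0.0282, and r of 0.60). With Hdc, the histamine-forming enzyme of ECL cells, r lay between -0.27 and 0.09 in the 4 groups, and with the B cell gene Cd79a between -0.52 and 0.33, and none of these 8 relations passed.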

How the data were processed

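The study sequenced poly-A selected RNA of the gastric corpus as single 75-base reads. Per the labels and the study's methods, the authors counted reads on GRCm38 transcripts with kallisto 0.42.4 and deposited 1 table of estimated counts per transcript, not normalized (expected counts, whole numbers in the file). The annotation release was not given in the sources used here. The study tested with Sleuth, which was not repeated here.

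Of 94080 transcripts, 92372 were paired with a GENCODE vM21 gene name and summed per gene. The other 1708 held 0.329% to 1.30% of counts and were left out. Tests used edgeR 4.0.16: filterByExpr (minimum count 10, minimum total 15), TMM factors, glmQLFit over all 44 libraries with a mean per group, glmQLFTest, and Benjamini-Hochberg adjustment with a threshold of 0.05. CPM use TMM-scaled library sizes, and log2 CPM a prior count of 2. Length is the count-weighted mean of annotated transcript lengths, and reads of antisense or closely related genes were placed by kallisto. Alternatives used DESeq2 1.42.0, limma 3.58.1 (limma-trend) and other libraries or scalings. Relations used 100000 resamples, or exact pairings for 9 libraries. The fits were tested on simulated counts.

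Alternatives added after seeing the data were the transcript length offset, the animals numbered 100 or above, and leaving out the Krt5 libraries, KO/PEG replicate 9 or WT/NTZ replicate 9. Groups came from the labels, with replicates numbered in accession order. The labels give 13 KO/PEG libraries, more than the mice in the study's text, and all were used. All 44 members are reported, with full statistics for the up to 4 smallest p-values of each role in a comparison, for Mki67, and for calls against the majority. The members and lists were chosen with earlier results of these data known. Estimated counts of a low gene such as Ccne2 (1327 in all libraries) limit its precision, and floors cover counting error only.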

Additional observations from a re-analysis of the deposited data

Results flagged for a closer look

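In the 9 WT/NTZ libraries, 8 of 44 members had 1 library whose gap to the next exceeded the critical share of the group's range (0.493); chance flags about 1 in 20 groups, and other groups have too many libraries for this check. 7 of the 8 were high in WT/NTZ replicate 9: Ccnd1 at 92.1 CPM (next 57.9), Ccne2 at 6.63 (next 4.14), Cdt1 at 13.1 (next 7.25), Mcm2 at 29.6 (next 19.3), Mcm4 at 30.2 (next 16.1), E2f1 at 7.11 (next 4.01) and Stmn1 at 46.5 (next 36.9). The same library held 17.3 CPM of Cd79a and the highest summed B cell markers of the group, 37.5 CPM against a median of 2.05. Without it none of the 44 members was called in WT/NTZ versus WT/PEG either. The eighth was Foxm1 in WT/NTZ replicate 1, at 11.9 CPM (next 8.09).

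The NTZ effect on Ccnb2 differed between KO and WT mice by 1.0 on the log2 scale in the interaction test. What lies behind these values was not tested.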

How the results depend on the processing

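The lowest member, Ccne2, held 1327 estimated counts in all libraries. The 44 genes were followed under every alternative that applied to a comparison, and the counts given here need not be of the same genes. Shares of all genes called in each alternative are not given here. In WT/NTZ versus WT/PEG none of the 44 was called in any of them. In KO/PEG versus WT/PEG, the 28 members called became 5 with the length slope as a covariate, the 5 replication calls became 2 and the 13 mitosis calls 1, and the replication calls became 12 with only animals numbered 100 or above. In KO/NTZ versus KO/PEG, the 5 calls, all of mitosis genes, became 3 with the slope (3 of the 5 were lost and Cenpe was called), 3 with the offset for transcript length, 2 with only the groups compared and 0 without the libraries with Krt5 above 1 CPM, and the replication calls went from 0 to 1 with only KO animals numbered below 100. In KO/NTZ versus WT/NTZ, the 21 calls became 9 with the slope and 11 without the Krt5 libraries, the 9 mitosis calls 3 with the slope, and the 5 replication calls 9 with the highest transcript of each gene, 3 without the Krt5 libraries and 3 with only the groups compared. For the difference between the NTZ effects, the 1 call, a mitosis gene, became 3 with DESeq2, 3 with the slope, 2 without KO/PEG replicate 9, 2 without WT/NTZ replicate 9, 0 without the Krt5 libraries and 0 with only KO animals numbered below 100.

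Members that changed sign in KO/PEG versus WT/PEG had these log2 fold changes with the slope: Ccnd2 0.15, Ccne1 -0.46, Ccne2 0.0888, Cdc45 -0.60, Cdt1 -0.10, Mcm2 -0.50, Mcm3 -0.72, Mcm5 -0.50, Bub1 0.074, Birc5 -0.34, Ube2c -0.36, E2f1 -0.17 and Stmn1 -0.48. With only KO animals below 100 they were Cdc45 -0.0284 and Mcm5 -0.0122, with the highest transcript Mcm3 -0.73, Kif20a 0.18 and Tpx2 1.84, and with the offset Cenpe 0.0228 and Top2a 0.36. In KO/NTZ versus WT/NTZ they were, with the slope, Ccne1 -0.37, Cdc45 -0.53, Cdt1 -0.31, Mcm2 -0.60, Mcm3 -0.87, Mcm5 -0.86, Mcm7 -0.49 and Stmn1 -0.11, with the highest transcript Mcm3 -1.33 and Mcm7 -0.44, without the Krt5 libraries Kif11 0.0722, and with the offset Top2a 0.71. The slope differs between the genotypes, so this fit cannot tell the 2 apart, and the cause of the other changes was not tested. No paired analysis was possible because replicate numbers follow accession order and pair no samples.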
